A study of Mus musculus with 24 samples.

Results

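The cytosolic ribosomal proteins are the protein components of the ribosomes that translate nuclear-encoded mRNA. On the 2 Affymetrix array designs of this mouse brain study, called array A (MGU74A) and array B (MGU74B) here, they were taken as every probe set whose single gene symbol in the platform annotation is Rpl or Rps followed by a number, Rplp0 to Rplp2, or Rpsa. Symbols of the ribosomal S6 kinases and of pseudogenes were left out. The rule found 51 probe sets for 37 genes among 24833 probe sets in all. Array A held 49 of them for 35 genes. By symbol, 22 probe sets for 17 genes were counted to the large subunit, Rpl7l1 among them, and 27 for 18 genes to the small subunit. Array B held 2, for Rpl27 and for Rps19bp1. The symbol Rps19bp1 meets the rule by its spelling, but it names a nucleolar protein that binds Rps19 and is not a subunit of the ribosome. A further 39 probe sets of array A, and 5 of array B, carry several gene symbols with a ribosomal protein among them, and these were not counted as members.

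Total RNA of brain from 6 samples labelled 2N and 6 labelled Ts1Cje was hybridised to each design, which makes 24 arrays. Whether same-numbered samples of the 2 designs were the same RNA is not stated in the labels. As background, 2N mice carry the normal pair of every chromosome, and Ts1Cje is a mouse model of Down syndrome in which the distal end of chromosome 16 is present once more, attached to chromosome 12. Neither genotype carries a transgene or a treatment by its labels, and the labels give no age, sex, strain background or brain region. The samples of a genotype are numbered 1 to 6, and nothing in the labels says that each came from an animal of its own. The p-values therefore rest on a spread between samples that may be technical in part.

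A mammalian ribosome joins a small subunit, which binds the mRNA and reads its codons, to a large subunit, which forms the peptide bonds. Each subunit is built in the nucleolus from ribosomal RNA and one copy of nearly every ribosomal protein, so cells make these proteins in step with each other. Their mRNAs are among the most abundant of most cells, share a pyrimidine-rich start and are translated under control of the growth kinase mTOR, and their genes share short promoter elements. In brain, ribosomal protein mRNAs are found in the cell body and also in dendrites and axons.

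The promoters of 6 bright members are shown because the same short element lies near the start of genes from both subunits, which were then compared between the genotypes. The sequences are RefSeq promoter sequence of GRCm38.p6, from 70 bases before the annotated start to 30 bases from it, written 5′ to 3′ on the strand of the gene. The positions are chr10:128549139-128549238 on the minus strand for Rpl41, chr5:121204431-121204530 on the plus strand for Rpl6, and chr1:72711190-72711289 on the plus strand for Rpl37a. For the small subunit they are chr12:28635924-28636023 for Rps7, chr17:33955636-33955735 for Rps18 and chr17:27635215-27635314 for Rps10, all on the minus strand. Capitals mark the core of the ETS family binding motif, CTTCCG or its reverse complement CGGAAG.
Rpl41: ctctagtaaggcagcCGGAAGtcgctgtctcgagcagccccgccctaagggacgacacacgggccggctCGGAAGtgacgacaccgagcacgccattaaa
Rpl6: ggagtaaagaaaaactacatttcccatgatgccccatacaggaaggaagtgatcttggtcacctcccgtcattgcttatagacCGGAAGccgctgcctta
Rpl37a: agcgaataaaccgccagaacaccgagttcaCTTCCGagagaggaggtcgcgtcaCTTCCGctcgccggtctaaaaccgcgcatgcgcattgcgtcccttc
Rps7: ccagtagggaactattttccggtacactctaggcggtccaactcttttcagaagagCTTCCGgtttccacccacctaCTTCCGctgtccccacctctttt
Rps18: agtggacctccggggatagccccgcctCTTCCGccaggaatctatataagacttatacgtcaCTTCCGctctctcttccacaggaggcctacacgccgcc
Rps10: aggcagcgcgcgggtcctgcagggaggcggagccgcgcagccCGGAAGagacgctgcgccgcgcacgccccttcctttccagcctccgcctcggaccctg

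Of the 36 member genes other than Rps19bp1, 29 had an entry in the promoter table, and Rpl32, Rpl7, Rpl8, Rps14, Rps20, Rps29 and Rps4l had none. In the window of 250 bases before to 50 bases after the start, CTTCCG on either strand stood in 19 of the 29 genes, or 65.5%, and in 18.8% of all 27025 genes of the table. The core of the YY1 motif, AAGATGG on either strand, stood in 7 of 29 genes, or 24.1%, and in 7.28% of all genes. The letters CTTTCC, a pyrimidine stretch counted on the gene's strand only, stood in 14 of 29 genes, or 48.3%, and in 16.01% of all genes. These matches describe letters in a window and show neither a bound factor nor the start that brain cells use. Among genes with a mean intensity of 100 or more, the 12 with the ETS core had log2 differences between the genotypes of -0.07 to 0.07, with a median of -0.0038. The 6 without it ran from -0.08 to 0.01, with a median of 0.0021.

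The deposited values were linear intensities, 1 per probe set and array. Median deposited intensities lay between 11.2 and 21.7 for array A and between 7.9 and 13.8 for array B. The lowest rank correlation between any 2 arrays of a design was 0.914 and 0.883. Values below are normalised intensities, and differences are log2 of Ts1Cje over 2N with standard errors from limma over 6 samples a genotype. A probe set was tested if its mean reached the 25th percentile of its table, an intensity of 4.29 (array A) or 3.28 (array B). The labels were checked with genes of the trisomic segment: Son, a splicing cofactor, rose from 127 ± 8.59 to 242 ± 20.6 (SD, n = 6 each) and Ttc3, a ubiquitin ligase, from 509 ± 35.8 to 729 ± 34.7. Their limma adjusted p-values on array A were 1.1e-05 and 0.00067. Neuron markers were well measured, with Tubb3 at 2673 ± 164 and Stmn2 at 1839 ± 181 in 2N (SD, n = 6 each), while the myelin gene Mbp stood at 36.3 ± 6.92 and Mog was below the filter. None of the brain cell type, erythroid, choroid plexus or pituitary markers passed the adjusted threshold. On array A, 6 of 6 neuron markers were above 0, at 0.02 to 0.16, and on array B 1 of 3 was, with Syt1 at -0.10 and Map2 at -0.03. Array A had 5 of 5 pituitary markers above 0, and 1 of 5 microglia markers and 0 of 3 erythroid markers above 0. Markers with an unadjusted limma p under 0.05 were the pituitary hormone gene Cga at 0.91 (exact permutation p = 0.024, array A), the choroid plexus gene Clic6 at 0.42 (exact permutation p = 0.019, array B) and the endothelial gene Flt1 at -1.07 (exact permutation p = 0.024, array B). Flt1 was dim on array B and stood at -0.09 on array A, where 4 of 5 endothelial markers were above 0. Eng, another endothelial marker, was at 0.23 on array B. The part of these cell types in the results was not tested. Nor was the part of gene copy number in the marker differences, that of Clic6 on array B among them. In tissue RNA, fewer cells of a type and less RNA per cell cannot be told apart.

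No ribosomal protein probe set differed between 2N and Ts1Cje brain by the test. Of the 49 on array A, 36 passed the filter on dim probe sets, for 29 genes, and 0 of the 36 had a limma adjusted p under 0.05, against 9 of all 9316 tested probe sets, or 0.0966%. Without adjustment 0 of 36 members had a p under 0.05, where 340 probe sets, or 3.65% of all tested, had one. The intensities of the genotypes were fully separated for 0 of 36 members and for 28 probe sets in all, or 0.301%. On array B both members were tested and 0 of 2 passed, against 6 of 9308 or 0.0645%. Without adjustment 0 of these 2 had a p under 0.05, against 398 probe sets or 4.28%. The smallest adjusted p of any member was 0.99, and the smallest two-sided exact permutation p was 0.152, for Rpl41.

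The median log2 difference of the 36 members was 0.0082, with 20 above 0 and 16 below, and that of all tested probe sets of array A was -0.0042, with 4559 above and 4757 below. The 16 tested probe sets of the large subunit had a median of -0.01, with 8 on either side of 0. The 20 of the small subunit had a median of 0.01, with 12 above 0 and 8 below. Single members ran from -0.46 for Rpl7l1 to 0.53 for the dimmer probe set of Rpl22, both dim and both with intervals that include 0.

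After normalisation between arrays, the intervals of bright members were narrow. A mean intensity of 100 or more, a limit chosen after the values were seen, was reached by 23 member probe sets for 21 genes. Their log2 differences ran from -0.08 to 0.16, with a median of 0.0023. The 95% limma interval of the difference lay wholly within a 1.2-fold change for 21 of the 23, and within a 1.5-fold change for 23 of 23. This bound rests on normalisation between arrays: on the deposited values 0 of the 23 had an interval within 1.2-fold. The 2 whose interval reached past 1.2-fold were Rps4l and Rps19. Of all 1787 probe sets this bright, 882 had an interval within 1.2-fold and 1746 within 1.5-fold. The 13 tested members below 100 were far less certain: 0 had an interval within 1.2-fold, 2 had one within 1.5-fold, and for 7 a rise of 1.5-fold in Ts1Cje lay inside the interval.

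**Figure D1:**
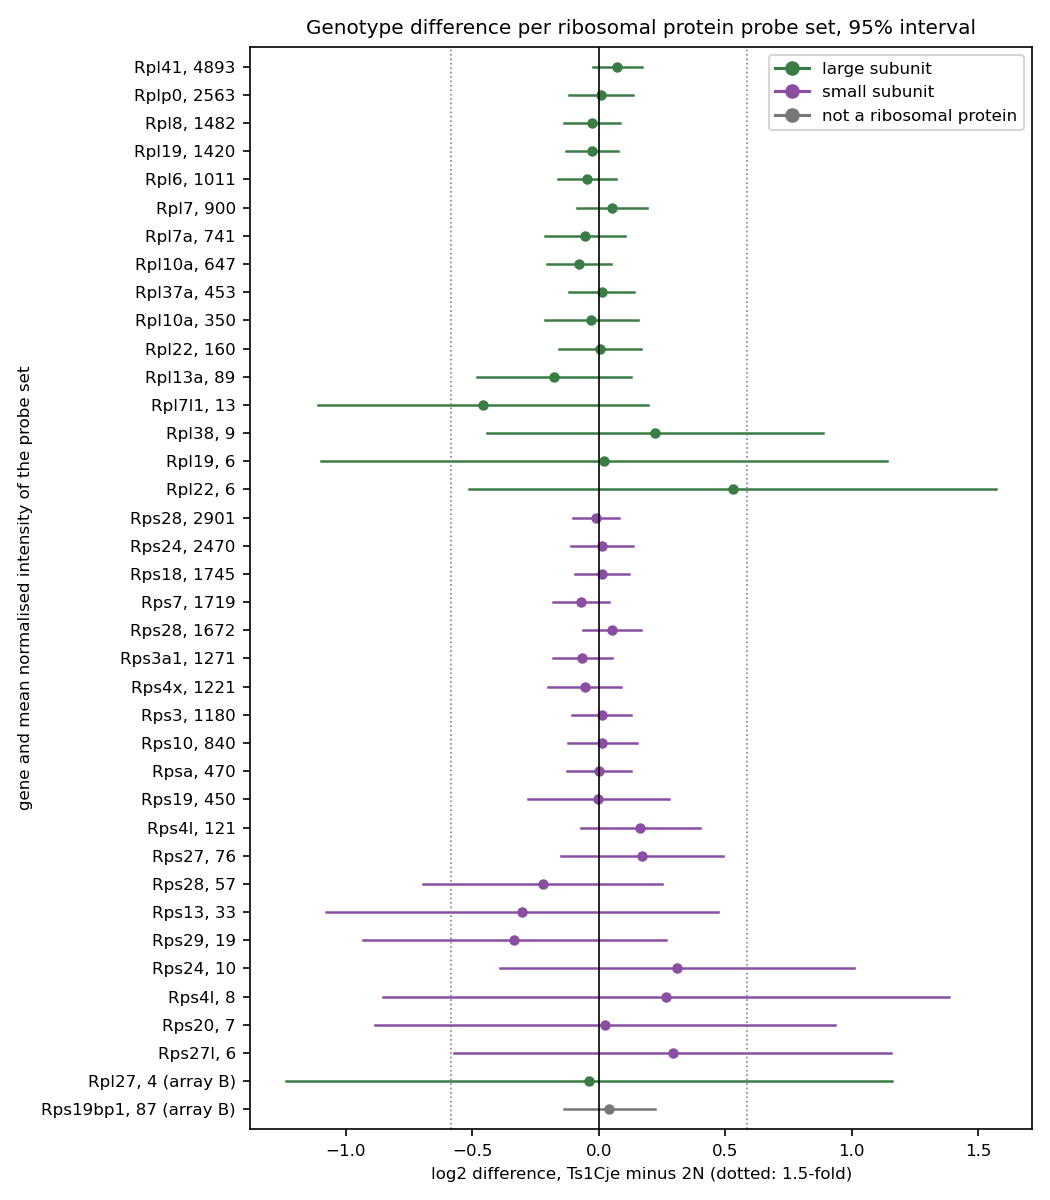
Each point is the log2 difference, Ts1Cje minus 2N, of one tested ribosomal protein probe set, and the line is its 95% limma interval (6 samples per genotype). The label gives the gene and the mean normalised intensity, dotted lines mark a 1.5-fold change, and every interval includes 0, with narrow ones for the 23 bright probe sets and wide ones for the dim.

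Among proteins of the large subunit, Rpl41, a very small basic protein that bridges the subunits, had a probe set that ranked 2 to 5 on every array. Its lowest, median and highest intensities were 4373, 4902 and 4902 in 2N and 4902, 4902 and 5258 in Ts1Cje. Most samples of both genotypes shared the value 4902, since quantile normalisation gives a rank the same value on every array and leaves only 4 distinct values over the 12 arrays. The log2 difference was 0.07 (SE 0.046, limma adjusted p = 0.99, two-sided exact permutation p = 0.152). With arrays scaled to the same trimmed mean in place of quantile normalisation, Rpl41 ran from 4352 over 4585 to 5820 in 2N and from 4325 over 4957 to 5821 in Ts1Cje. The genotypes overlapped almost fully on that scale, with a log2 difference of 0.07 and an exact permutation p of 0.455.

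Rplp0, the protein at the base of the stalk that recruits elongation factors, had a lowest, median and highest intensity of 2342, 2474 and 2953 in 2N and of 2424, 2563 and 2830 in Ts1Cje. The Ts1Cje range lay inside that of 2N, and the log2 difference was 0.01 (SE 0.060, limma adjusted p = 0.998). With arrays scaled to the same trimmed mean, the lowest Ts1Cje value, 2391, was below the lowest of 2N, 2413. The stalk partners Rplp1 and Rplp2 had no probe set under the rule.

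Rpl8, which lies near the peptidyl transferase centre, ran from 1413 over a median of 1501 to 1543 in 2N and from 1319 over 1482 to 1565 in Ts1Cje. Rpl19, which reaches toward the small subunit, ran from 1359 over 1437 to 1491 in 2N and from 1319 over 1427 to 1474 in Ts1Cje. The genotypes overlapped in both genes, and both log2 differences were -0.03 (SE 0.052 and 0.049, limma adjusted p = 0.99). With arrays scaled to the same trimmed mean, the Rpl8 difference was -0.06, with a two-sided exact permutation p of 0.061 before any adjustment, the smallest of the 23 probe sets at an intensity of 100 or more on that scale.

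Rpl10a, a protein of the flexible L1 stalk near the tRNA exit, had 634, 664 and 697 as its lowest, median and highest intensities in 2N and 576, 629 and 715 in Ts1Cje. It was above the 2N median in 1 of 6 Ts1Cje samples, yet the highest value of all was a Ts1Cje sample. The log2 difference was -0.08 (SE 0.061, limma adjusted p = 0.99, two-sided exact permutation p = 0.173), and that of a second probe set was -0.03 (SE 0.087). Rpl6 ran from 952 over 1043 to 1066 in 2N and from 908 over 996 to 1062 in Ts1Cje, a log2 difference of -0.05 (SE 0.054). Rpl7a, at -0.05 (SE 0.075), and Rpl37a, a zinc-binding protein, at 0.01 (SE 0.061), also overlapped between the genotypes. With arrays scaled to the same trimmed mean, the brighter Rpl10a probe set was at -0.09 and Rpl6 at -0.08. Their two-sided exact permutation p-values on that scale were 0.076 and 0.091. Rpl7a was at -0.04 and Rpl37a at -0.01 there.

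Rpl22, which binds RNA and is dispensable for ribosome assembly in mice, had 145, 162 and 174 in 2N and 145, 158 and 176 in Ts1Cje. These ranges were nearly the same, with a log2 difference of 0.01 (standard error 0.077, limma adjusted p = 0.998). Rpl13a, which in human myeloid cells also leaves the ribosome to silence inflammatory mRNAs, had 73.8, 98.7 and 122 in 2N and 63.8, 84.8 and 106 in Ts1Cje. It was above the 2N median in 1 of 6 Ts1Cje samples, with a log2 difference of -0.18 (standard error 0.14, limma adjusted p = 0.99, two-sided exact permutation p = 0.307). The direction rested on the samples numbered 1 and 2, which alone gave -0.61, while samples 3 to 6 alone gave 0.04. The difference was -0.10 without the 2N sample numbered 1 and also -0.10 without the Ts1Cje sample numbered 2. Rpl38, whose loss alters skeletal patterning in mice, was dim on array A, and its difference was 0.22 (SE 0.31). Rpl27 on array B was at the lower end of the measured range, from 2.45 over 3.71 to 5.89 in 2N and from 1.05 over 5.20 to 8.87 in Ts1Cje. Its interval for the log2 difference ran from -1.24 to 1.16, which leaves a change of more than 1.5-fold in either direction within the error.

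**Figure D2:**
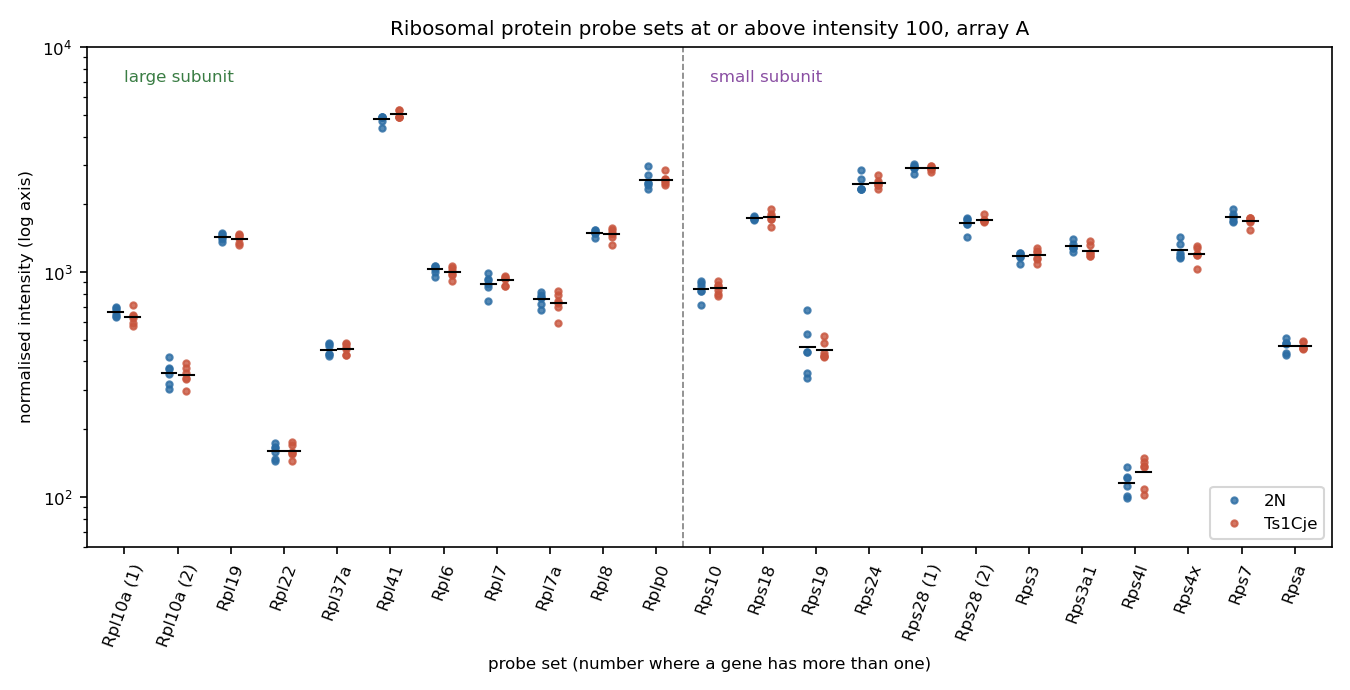
Points are the normalised intensities (log axis) of the 6 samples per genotype for the 23 ribosomal protein probe sets with a mean of 100 or more on array A, and bars are genotype means. The genotypes overlap in every probe set. Heights of different probe sets are not comparable, since each set binds its target differently.

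In the small subunit, Rps28, a small protein near the site where mRNA leaves the ribosome, had 3 tested probe sets. Its brightest ran from 2737 over 2932 to 3006 in 2N and from 2783 over 2893 to 2953 in Ts1Cje. After quantile normalisation, which left 6 distinct values over the 12 arrays, the Ts1Cje range lay inside the 2N range. The log2 difference was -0.0100 (SE 0.043, 95% interval -0.10 to 0.08), the narrowest interval of any member. With arrays scaled to the same trimmed mean, this probe set ran from 2720 to 3429 in 2N and from 2628 to 3199 in Ts1Cje. The difference on that scale was -0.05. After quantile normalisation, the second Rps28 probe set had a difference of 0.05 (SE 0.054), and the dim remaining one -0.22 (SE 0.22).

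Rps24, which is needed for processing of the small subunit RNA, ran from 2342 over 2342 to 2830 in 2N and from 2342 over 2449 to 2704 in Ts1Cje, a log2 difference of 0.01 (SE 0.058). Rps18, in the head of the small subunit, ran from 1700 over 1730 to 1779 in 2N and from 1586 over 1751 to 1913 in Ts1Cje, with a difference of 0.01 (SE 0.050, limma adjusted p = 0.998 for both genes). Both genes overlapped between the genotypes, and for Rps18 the Ts1Cje samples spread more widely on both sides of the 2N samples.

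Rps7, which besides its place in the ribosome binds the p53 regulator Mdm2, had 1662, 1758 and 1913 in 2N and 1529, 1707 and 1737 in Ts1Cje. It was the only bright member with 0 of 6 Ts1Cje samples above the 2N median, although the ranges overlapped from 1662 to 1737. The log2 difference was -0.07 (SE 0.052, limma adjusted p = 0.99, two-sided exact permutation p = 0.160). With arrays scaled to the same trimmed mean, the highest Ts1Cje value of Rps7, 1930, was above the 2N median of 1776. The log2 difference on that scale was -0.10 (two-sided exact permutation p = 0.190). Rps7 lies on chromosome 12, the chromosome that carries the translocated segment in Ts1Cje. Rps29, the other member there, is a zinc-binding protein of the small subunit head. It was dim, with 15.2, 19.9 and 44.3 in 2N and 9.78, 16.6 and 29.6 in Ts1Cje, and a log2 difference of -0.33 (SE 0.28, exact permutation p = 0.325). Without the 2N sample numbered 2, which held the value of 44.3, the difference was -0.12, and without the Ts1Cje sample numbered 6 it was -0.18. Any part of the location on chromosome 12 in the Rps7 and Rps29 differences was not tested.

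Rps3, a protein at the mRNA entry channel that also takes part in DNA repair, had a log2 difference of 0.01 (SE 0.055), and Rps10, its neighbour at the entry, 0.01 (SE 0.065). Rps3a1 was at -0.06 (SE 0.055, exact permutation p = 0.193). Rps19, the gene most often mutated in human Diamond-Blackfan anaemia, had 338, 439 and 676 in 2N and 420, 431 and 519 in Ts1Cje. Its medians were close and the 2N samples spread widely, so that the log2 difference of -0.0020 (SE 0.13) carried an interval of -0.28 to 0.28. Rpsa, which is also known as the laminin receptor precursor, had 428, 481 and 509 in 2N and 456, 461 and 495 in Ts1Cje, with all Ts1Cje samples inside the 2N range and a difference of 0.0023 (SE 0.060).

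Of the dim small subunit members, Rps13 was at -0.30 (SE 0.37) and Rps20 at 0.03 (SE 0.43). Their 95% intervals, from -1.08 to 0.47 and from -0.88 to 0.93, leave a fall of more than 1.5-fold within the error for both.

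Paralogs, genes that arose from copies of a ribosomal protein gene, were compared with their partners by difference only, since levels of different probe sets are not on one scale. Rps4x, the X-linked gene, ran from 1151 over 1203 to 1433 in 2N and from 1034 over 1199 to 1302 in Ts1Cje, a log2 difference of -0.05 (SE 0.068). Its autosomal copy Rps4l had 98.5, 116 and 136 in 2N and 102, 137 and 150 in Ts1Cje. With 4 of 6 Ts1Cje samples above the 2N median and overlapping ranges, Rps4l had the largest positive difference among bright members, 0.16 (SE 0.11, 95% interval -0.07 to 0.40, limma adjusted p = 0.99, two-sided exact permutation p = 0.182). The identifier of this Rps4l probe set marks probes shared with other transcripts, so signal of Rps4x cannot be told apart from that of Rps4l.

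Rps27 had 50.8, 72.7 and 98.6 in 2N and 61.7, 86.3 and 94.7 in Ts1Cje, a log2 difference of 0.17 (SE 0.15). Its paralog Rps27l, a target of p53 in human cells, was dim and at 0.29 (SE 0.41). Rpl7 had 746, 903 and 988 in 2N and 863, 936 and 961 in Ts1Cje, a difference of 0.05 (SE 0.066). The bright Rpl7 probe set and the bright Rps24 probe set were annotated to the same source sequence, so which of the genes each measured is uncertain. Rpl7l1, a related protein that acts in ribosome assembly, was counted with the large subunit by its symbol only. It had 11.8, 14.1 and 20 in 2N and 5.63, 12.5 and 18.1 in Ts1Cje. Its difference of -0.46 (SE 0.31, 95% interval -1.11 to 0.19, limma adjusted p = 0.99, two-sided exact permutation p = 0.221) was the lowest of all members and lay within the spread of this dim probe set. Rpl39 and Rpl39l, a paralog known from testis, were both below the filter.

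Rps19bp1 on array B had 79.0, 84.5 and 97.1 in 2N and 78.2, 90.2 and 97.6 in Ts1Cje, with a log2 difference of 0.04 (standard error 0.086, limma adjusted p = 0.997). The genotypes overlapped over nearly their whole range.

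The 13 untested member probe sets on array A covered Rpl32, Rpl35a, Rpl39, Rpl39l, Rps14 and Rps15, for which no probe set was tested, and further sets of Rpl38, Rpl7, Rps29 and Rps4x. The highest genotype median among the 13 was 6.01. Rpl35a and Rpl39l are the members on chromosome 16, and in the order of genes in the reference annotation both lie on the centromeric side of Sod1, outside the triplicated segment. A low value here is that of a probe set and does not show that the mRNA was scarce, since 10 genes had several probe sets and these often differed widely. For Rps4x, which had 5, the medians of the other 4 in 2N ran from 1.14 to 3.24, and for Rpl19 a second set stood at 4.71. Of the 15 member probe sets with a suffix for shared or fewer probes, 10 were tested and 0 passed. The sets of Rpl41, the brightest ones of Rps28 and Rps24 and the second of Rpl10a were among them. The part of other transcripts in the signal of these sets was not tested.

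**Figure D3:**
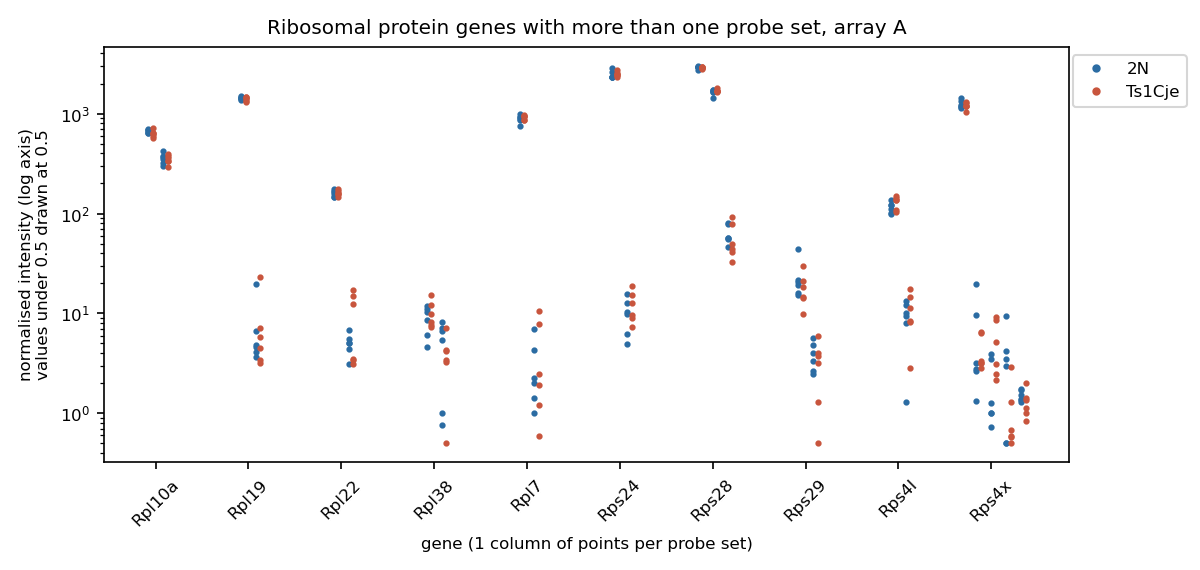
Normalised intensities (log axis, values under 0.5 drawn at 0.5) of the 6 samples per genotype for each probe set of the 10 genes with more than one on array A, 1 column of points per probe set. Sets of one gene lie far apart in most of these genes, while the genotypes overlap within every set.

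The probe sets left out because they name several genes were tested in the same fits. On array A, 36 of the 39 were tested and 0 passed, with a median log2 difference of -0.0017. The 24 of them at or above an intensity of 100 ran from -0.12 to 0.16, and all 24 intervals lay within a 1.5-fold change. On array B, 4 of the 5 were tested and 0 passed. On both designs, 0 of these had an unadjusted limma p under 0.05.

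Ribosomal protein probe sets also varied little among samples of one genotype. At an intensity of 100 or more the median SD of log2 intensity within a genotype was 0.0802 for the 23 members and 0.165 for all 1787 probe sets. At 400 or more it was 0.0793 for 20 members and 0.119 for all 347. With the arrays scaled to the same trimmed mean, where ranks do not fix the values, it was 0.0999 for these 20 members and 0.129 for all 347, and 17 of the 20 were below the median of all. The SD of all probe sets was smaller at the higher limit, and members and other probe sets were not matched for intensity above either limit. How far brightness accounts for the small spread of the members was not tested. Rps19 was the bright member with the largest spread, with an SD of 0.28.

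**Figure D4:**
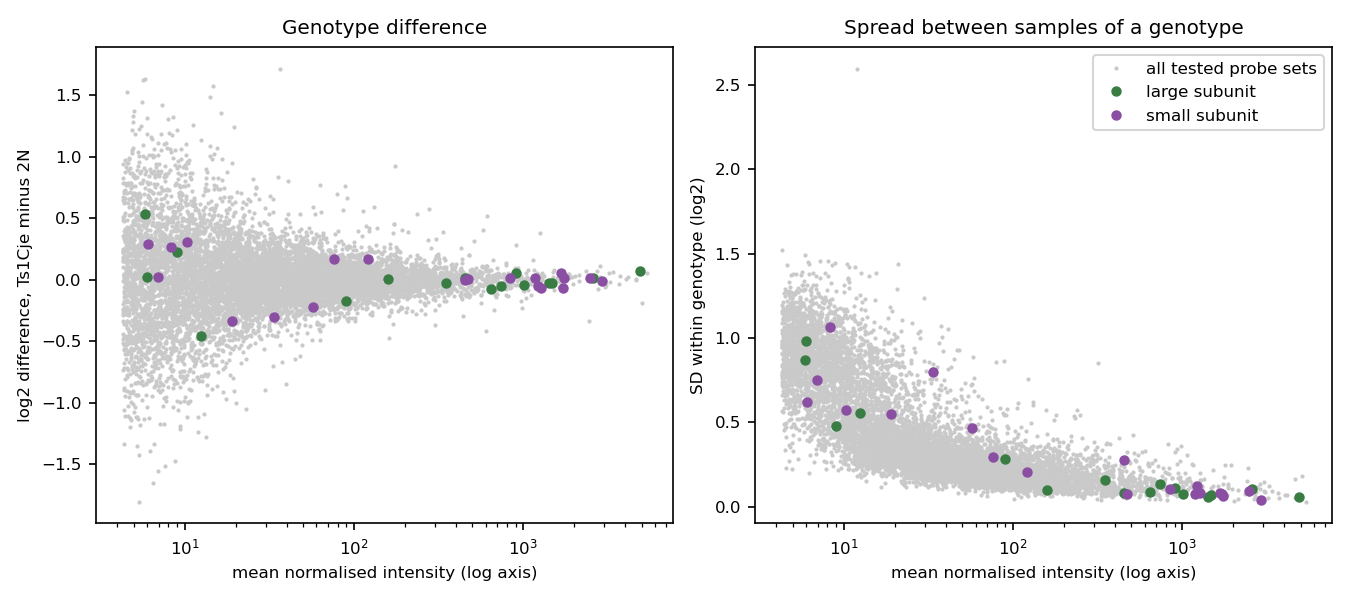
Log2 difference (left) and SD of log2 intensity within a genotype (right) against mean normalised intensity on a log axis, for all 9316 tested probe sets of array A in grey and the 36 ribosomal protein probe sets in colour. The members at 100 or more lie close to 0 on the left, and 21 of these 23 lie below the median SD of all probe sets at 100 or more on the right.

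Over the whole group, the 49 member probe sets of array A gave 3.63% ± 0.101 of the summed deposited intensity in 2N and 3.60% ± 0.116 in Ts1Cje (SD, n = 6 each). The 2N samples ran from 3.55% to 3.82% and the Ts1Cje samples from 3.40% to 3.75%, so the genotypes overlapped. The mean log2 deviation of the 23 bright members from their own means ran from -0.04 to 0.04 in 2N samples and from -0.02 to 0.02 in Ts1Cje samples. The direction of so small a shift rested on the scaling. After quantile normalisation 12 of the 23 bright members, or 52.2%, were above 0, as were 864 of all 1787 probe sets as bright, or 48.3%. With arrays scaled to the same trimmed mean 4 of 23 members, or 17.4%, were above 0, and 802 of the 1787, or 44.9%. On that scale the median was -0.02 for the members and -0.01 for all 1787.

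**Figure D5:**
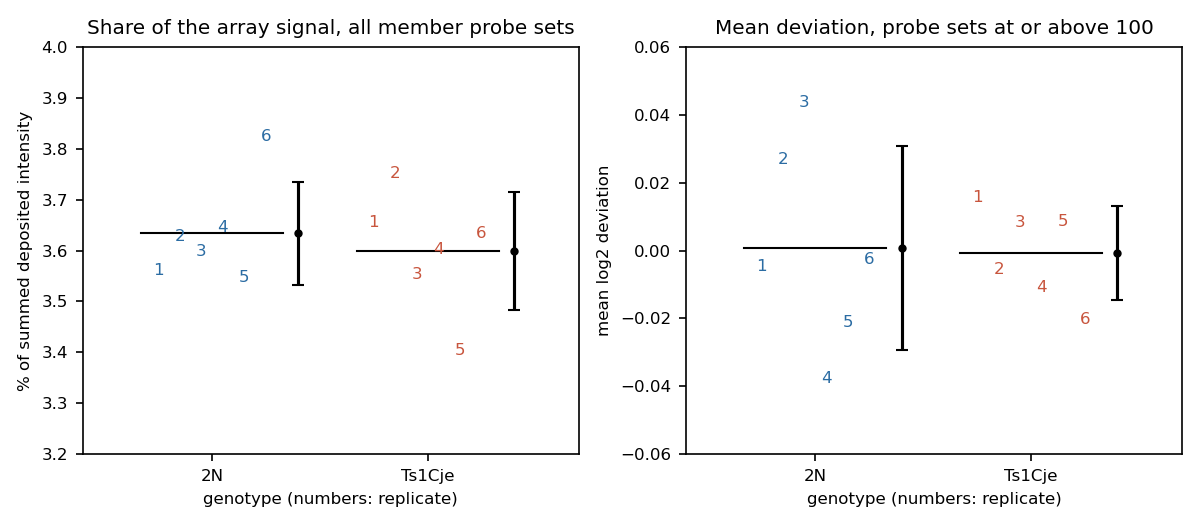
Share of the summed deposited intensity in the 49 ribosomal protein probe sets of array A (left, %) and mean log2 deviation of the 23 bright ones from their own means (right) for each sample, drawn as its replicate number. Lines are genotype means and bars are SD (n = 6), neither axis starts at 0, and the genotypes overlap in both measures.

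Ribosomal RNA was read by control probe sets for 18S rRNA, the RNA of the small subunit. Scaled to the same trimmed mean, the 3′ control of array A had 118, 136 and 284 as lowest, median and highest values in 2N and 114, 123 and 284 in Ts1Cje (two-sided exact permutation p = 0.452). The highest value in each genotype was that of the sample numbered 1, and the 2N sample numbered 2 was also high at 267, while samples 3 to 6 reached at most 150 in 2N and 134 in Ts1Cje. The 5′ and middle controls and the controls on array B had the same-numbered samples highest, with exact permutation p-values between genotypes of 0.72 to 0.98. In these controls the Ts1Cje sample numbered 2 was also above Ts1Cje samples 3 to 6, at 89.0 against at most 70.2 in the 5′ control of array A. In the 3′ control of array A it stood at 129, below their highest value of 134. The mean log2 deviation of the bright members in the samples numbered 1 was -0.0047 in 2N and 0.016 in Ts1Cje, the latter the highest of its genotype, and it was 0.027 in the 2N sample numbered 2. The part of the rRNA signal in these values was not tested.

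Other genes of translation, listed with earlier results of these data known, likewise held no call, and 0 of them had an unadjusted limma p under 0.05 on either design. Of 37 initiation factors, 29 were tested on array A with 0 called, 18 above 0 and a median log2 difference of 0.01. The brightest of them, the poly(A)-binding protein Pabpc1, had 762 ± 64.8 in 2N against 772 ± 42.4 in Ts1Cje (SD, n = 6 each), a difference of 0.02, and the smallest p belonged to Eif2b4, a subunit of the eIF2 exchange factor, at 0.27 (SE 0.13, limma adjusted p = 0.99). On array B 8 initiation factors were tested with 0 called, and 2 were above 0. Of the elongation and termination factors, 0 of 10 tested (array A) and 0 of 6 tested (array B) were called. Eef1a1, which delivers tRNAs to the ribosome, had 4043 ± 54.0 in 2N against 4072 ± 279 in Ts1Cje (SD, n = 6 each), a difference of 0.0074. Its lowest and median 2N values and its Ts1Cje median were all 4021, since quantile normalisation gives a rank the same value. These SDs rest on such shared values and were not compared. Eef2, which moves the ribosome along the mRNA, was at -0.02 (SE 0.063).

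Regulators of mRNAs with the pyrimidine-rich start held 0 calls, with 9 genes tested (array A) and 4 tested (array B). Larp1, which binds that start, was at -0.05 (SE 0.088, array A) and -0.18 (SE 0.11, array B), and the mTOR partner Rptor was at -0.38 (SE 0.18, limma adjusted p = 0.997) on array B. Other mRNAs that begin this way included Tpt1, a translationally controlled protein, at 0.0038 (SE 0.048), the nucleolar chaperone Npm1 at -0.09 (SE 0.069) and Naca, which binds nascent chains, at -0.15 (SE 0.090), with 0 of 7 called on array A. The factors that bind ribosomal protein promoters also held 0 calls, with 7 genes tested (array A) and 2 (array B). Gabpa, an ETS factor that recognises the core shown above, was dim on both designs, at -0.24 (SE 0.26, array A) and -0.57 (SE 0.52, array B). Fau, whose protein is processed into a small subunit protein and which the rule does not name, was dim and at 0.0030 (SE 0.62).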

How the data were processed

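Brain RNA of 6 2N and 6 Ts1Cje samples was measured on each of 2 array designs. The values deposited by the authors are linear intensities, 1 per probe set and array. The labels do not say how the probes of a set were summarised or scaled. The number of arrays limits the precision. Members, gene lists and tests were chosen with earlier results of these data known.

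After removal of 66 control probe sets per design, 12422 and 12411 remained on arrays A and B. Symbols came from the platform annotation, which gave 1 symbol to 10833 and 10581 of them, several to 396 and 178 and none to 1193 and 1652. All 37 member genes matched the reference annotation (GRCm38.p6), which was used for chromosomes and gene order.

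Trimmed means (2%) spanned a 2.10-fold and a 1.86-fold range across arrays, over the 5% limit set for normalisation, so each table was quantile normalised. Values were floored at the 10th percentile (1.47 and 1.13) before log2. All probe sets whose mean reached the 25th percentile were fitted with limma 3.58.1 (R 4.3.3, mean-variance trend, no covariate), 9316 and 9308 in number, with Benjamini-Hochberg adjustment within each table and a threshold of 0.05. A difference is on the floored log2 scale, which understates changes of dim probe sets. The exact permutation test of a single gene ran over the 924 splits, two-sided (scipy 1.17.1), whose smallest p is 0.0022. No columns were identical, and the limma step was tested on simulated data.

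A gene was represented by its brightest tested probe set. Genes were named where they had the smallest p or the brightest signal of their subunit, were stalk proteins, Rpsa, paralogs or on chromosome 12 or 16, or had widely differing probe sets. The remaining bright or dim members, which were named after their values were seen, complete the account. Alternatives covered normalisation, floor, filter, test, replicate block, sample subsets, the probe sets counted and the threshold.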

Additional observations from a re-analysis of the deposited data

Results flagged for a closer look

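In 76 genotype groups of member probe sets, the sample at one end stood apart from the other 5 by Dixon's test in 9. Chance flags about 1 in 20 groups of normally distributed values without ties, which would be 3.8 here. Quantile normalisation left shared values in some of these groups, so that rate is only a rough guide. None of these samples carried a call, since no member passed the test with or without them.

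In 2N on array A, the sample numbered 2 was low for both bright Rps28 probe sets, at 2737 where the next was 2911 and at 1433 where the next was 1637. The same sample was high for Rps29, at 44.3 with the next at 21.8 (the Rps29 difference was -0.33 with this sample and -0.12 without it), and low for the dim Rps4l probe set, at 1.29 with the next at 8.11. The 2N sample numbered 1 was low for Rps3, at 1086 with the next at 1170, and on array B high for Rps19bp1, at 97.1 with the next at 85.0. The 2N sample numbered 3 was high for the dim Rpl19 probe set, at 19.9 with the next at 6.62.

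In Ts1Cje, the sample numbered 1 was high for the second Rps28 probe set, at 1809 with the next at 1700. The sample numbered 3 was low for Rps7, at 1529 with the next at 1662. The 18S rRNA controls were also highest in the samples numbered 1 and in the 2N sample numbered 2. In all but the 3′ control of array A, the Ts1Cje sample numbered 2 was above Ts1Cje samples 3 to 6. The part of the rRNA signal in the flagged values was not tested.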

How the results depend on the processing

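The count of member probe sets called stayed 0 under all 28 alternatives on each array, an adjusted p under 0.10 among them. The median log2 difference of the members on array A ran from -0.07 to 0.01, and over the 12 settings that left out 1 sample from -0.02 to 0.01. On array B, with 2 members, the median ran from -0.36 to 0.19, and from -0.13 to 0.17 with 1 sample left out. Without normalisation between arrays, the medians on array A were -0.072 for all tested members and -0.081 for the bright ones, that of all probe sets was -0.06, and 0 of 23 bright members had an interval within 1.2-fold. Scaled to the same trimmed mean, the bright members' median was -0.022 and 21 intervals lay within 1.2-fold. That count was 20 to 22 under every other alternative run for it and 21 whichever sample was left out. Of 21 named genes tested, 10 changed sign under some setting, with 0 calls and a smallest adjusted p of 0.90 (limma). Rps18 was at -0.093 and Rpsa at -0.081 on the deposited values, where all arrays carry their own scale, and Rps28 was at 0.049 with only the samples numbered 1 and 2, where the cause was not tested. Rpl13a was at -0.61 with only the samples numbered 1 and 2 and at 0.04 with only samples 3 to 6. Same-numbered samples of the genotypes correlated at 0.016 to 0.079 (array A) and 0.012 to 0.109 (array B) in their deviations from genotype means. On these arrays 3 and 2 of 6 numbers correlated best with their own. Whether the number marks paired samples is not stated in the labels, and these weak correlations do not settle it. The 18S rRNA controls were highest in the samples numbered 1 of both genotypes. With the replicate block, 0 members were called, and the calls among all probe sets stayed at 9 and 6. The member medians of 0.0082 (array A) and 0.0024 (array B) could not move under the block. Each number holds 1 sample of each genotype, which leaves every difference unchanged. Among all probe sets, calls numbered 9 (array A) and 6 (array B), against 0 and 0 without normalisation and 2 and 0 without the mean-variance trend, 6 and 1 with samples 3 to 6 only, and 2 on array B without a filter. With 1 sample left out they numbered 6 to 11 (array A) and 1 to 6 (array B).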
